A study of Mus musculus with 10 samples.

Results

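The 10 genes described here mark airway goblet cells and mucous metaplasia: the gel-forming mucins Muc5ac and Muc5b, the transcription factors Spdef and Foxa3, the mucin-folding factor Agr2, and the secreted mucus proteins Clca1, Tff1, Tff2, Itln1 and Fcgbp. They were taken by name, through their Ensembl identifiers, from the 53465 genes counted in each library. The samples were lungs of BALB/c mice, 5 untreated controls and 5 given IL-33, an epithelial alarm cytokine, by the nose at 1 µg once a day for 5 days, with collection 24 hours after the last challenge. No source used here says that the controls were given vehicle, so IL-33 and the act of instillation cannot be told apart, and no age or sex is stated. All 10 genes were higher after IL-33, by 3.33-fold for Muc5b up to 119-fold for Itln1 among the 9 genes with more than 1 control read. Which of Itln1 and Clca1 is highest turns on 1 library and on the method. Without control 2 the log2 fold change was 8.38 for Clca1, and it was at most 7.11 for Itln1 with any 1 library left out. With all libraries kept, Clca1 also lay above Itln1 in limma-voom and with the replicate number as a block. Clca1 reached 1760 ± 819.6 CPM (counts scaled to the reads counted in genes; mean ± SD, n = 5), the highest of the 10 in CPM.

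Goblet cells are secretory epithelial cells that pack mucins into granules and release them as mucus. In the mouse airway they are few at rest and arise largely from club cells during type 2 inflammation, when IL-13 acts through its receptor and STAT6 and the factors SPDEF and FOXA3 switch on the secretory program. This change is called mucous metaplasia. MUC5B is the mucin of resting airways, needed for mucociliary clearance, while MUC5AC is the one most strongly induced in allergic airways.

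Promoters of 5 of the 10 genes (Spdef, Foxa3, Agr2, Itln1 and Fcgbp) were found in the RefSeq table of GRCm38.p6. The 250 bases before the start are printed for both transcription factors and for Itln1, the gene of the set with the steadiest control level. These 3 genes rose, as did Agr2 and Fcgbp, whose promoters are not printed. The 3 printed promoters lie on the minus strand, at chr17:27728952-27729201 (Spdef), chr7:19023540-19023789 (Foxa3) and chr1:171535295-171535544 (Itln1), and are written 5′ to 3′ along the gene. Capitals mark matches to the motifs searched.
Spdef: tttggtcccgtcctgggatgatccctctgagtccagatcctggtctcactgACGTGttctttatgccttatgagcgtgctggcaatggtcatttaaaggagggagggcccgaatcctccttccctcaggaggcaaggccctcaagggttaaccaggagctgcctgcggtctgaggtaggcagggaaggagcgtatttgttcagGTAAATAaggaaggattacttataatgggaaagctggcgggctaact
Foxa3: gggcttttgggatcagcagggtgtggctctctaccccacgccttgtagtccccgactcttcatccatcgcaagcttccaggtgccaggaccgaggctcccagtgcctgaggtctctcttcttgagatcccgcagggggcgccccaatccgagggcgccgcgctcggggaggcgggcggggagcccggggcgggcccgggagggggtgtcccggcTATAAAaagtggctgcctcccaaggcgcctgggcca
Itln1: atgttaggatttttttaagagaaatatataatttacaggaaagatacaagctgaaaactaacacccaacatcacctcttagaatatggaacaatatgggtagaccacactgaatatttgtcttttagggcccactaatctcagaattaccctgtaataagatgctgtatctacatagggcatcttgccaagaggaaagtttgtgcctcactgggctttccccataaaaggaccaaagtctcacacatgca

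Motifs were searched on both strands in windows of 300 bases, which add the first 50 bases after the start. The STAT6-type palindrome, TTC and GAA with any 4 bases between, was in none of the 5 promoters and in 6.95% of the 32851 promoters of the table. The same with 3 bases between (8.30% of the table), the forkhead motif TGTTTAC (3.65%) and the SPDEF-type core CCGGAT (6.04%) were likewise in none of the 5. The core ACGTG, read by bZIP and bHLH-PAS factors, was in the Spdef promoter, beginning 199 bases before the start, and in 19.6% of the table. Of 2 motifs chosen after the sequences were seen, the forkhead variant TATTTAC was in Spdef, beginning 47 bases before the start and printed from its other strand (3.04% of the table). The TATA box TATAAA was in Foxa3, 36 bases before the start (13.6% of the table). These are matches of letters only, in a window too short to hold distal sites.

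Reads assigned to genes numbered 8935159 to 13767118 per control library and 7805175 to 13178798 per IL-33 library, so that 3 reads stand for 0.218 to 0.384 CPM. Of the 15695 genes tested across the table, 69.9% passed an adjusted p of 0.05, 35.1% higher and 34.8% lower, with a median log2 fold change of -0.01. Reads with several alignments made up 15.0% to 16.2% of control records and 20.0% to 22.8% of IL-33 records. Across 15685 genes the fold change fell with exonic length (Spearman's rho -0.33 as a description, genes not being independent). The labels do not say that libraries came from separate mice, so p-values measure the spread between these samples. Markers of the labelled tissue were present in both groups: the club cell secretoglobin Scgb1a1 stood at 17222 ± 1007 CPM in controls and 11946 ± 607.3 CPM after IL-33.

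All 10 genes passed the low-count filter and the quasi-likelihood test of edgeR, Benjamini-Hochberg adjusted over all tested genes, and all 10 were higher in IL-33 lungs, where 35.1% of all tested genes were called higher. For 8 of the 10 the lowest IL-33 library lay above the highest control, which held for 28.5% of tested genes, and for 56.1% in either direction. At least 4-fold higher were 9 of the 10, against 5.36% of tested genes. Their log2 fold changes ran from 1.74 to 9.04 with a median of 4.15. In bulk lung RNA, more goblet cells and more of these transcripts per goblet cell cannot be told apart.

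**Figure D1:**
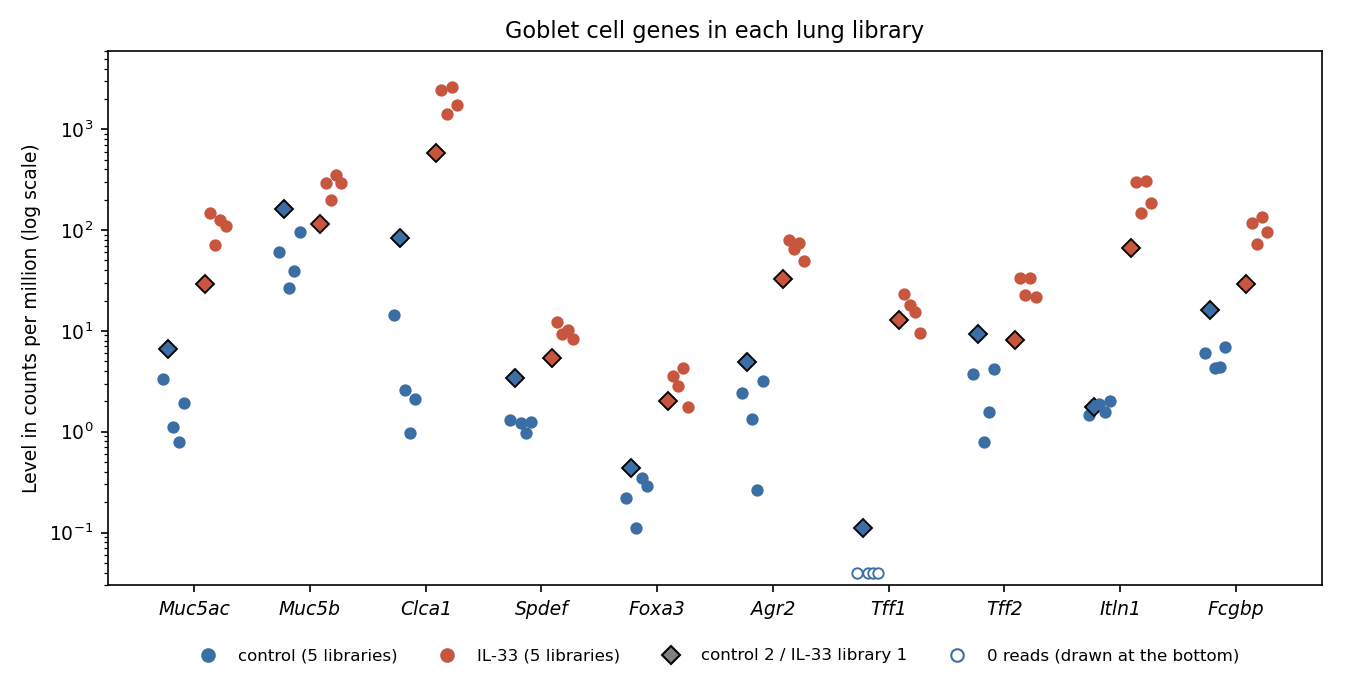
Level of each goblet cell gene in every library, in CPM on a log axis, with 5 control libraries in blue and 5 IL-33 libraries in red. Diamonds mark control 2 and IL-33 library 1, and open circles at the bottom mark libraries with 0 reads. The groups overlap only for Muc5b and Tff2, in each case because IL-33 library 1 lies below control 2.

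Muc5ac, the gel-forming mucin that is scarce in resting airway (ENSMUSG00000037974, GRCm38 chromosome 7, 141788972 to 141819231), was at 3.34, 6.60, 1.12, 0.787 and 1.92 CPM in controls 1 to 5. It was at 29.1, 146.7, 70.7, 125.8 and 109.8 CPM in IL-33 libraries 1 to 5. The groups did not overlap, with control 2 the highest control and IL-33 library 1 the lowest challenged lung. From a mean of 2.75 ± 2.36 to 96.4 ± 46.8 CPM, Muc5ac rose by 5.17 ± 0.51 on the log2 scale (SE; edgeR adjusted p = 1.453e-06).

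Muc5b, the mucin that resting airways secrete (ENSMUSG00000066108, chromosome 7, 141839070 to 141873084), was at 60.7, 159.9, 26.5, 38.9 and 95.0 CPM in controls 1 to 5. After IL-33 it was at 116, 291, 198, 354 and 293 CPM. IL-33 library 1 lay below control 2, and the other 4 challenged lungs lay above all controls. Muc5b had the smallest change of the 10, a log2 fold change of 1.74 ± 0.42 (edgeR adjusted p = 0.002338).

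The 2 mucins sit on the same strand 19838 bases apart, and their balance shifted with IL-33. Per exonic length (RPKM, CPM divided by exon length in kilobases), Muc5b exceeded Muc5ac 13.1 to 35.6 times in the controls and 1.42 to 2.87 times after IL-33. As a share of the summed RPKM of both genes, Muc5ac made up 7.11%, 5.43%, 5.55%, 2.74% and 2.73% in controls 1 to 5. That share was 25.9%, 41.2%, 33.2%, 33.1% and 34.3% in IL-33 libraries 1 to 5. The groups were far apart, also for the pair of libraries that overlapped in Muc5b itself: control 2 lay at 5.43% and IL-33 library 1 at 25.9%. The mean rose from 4.71 ± 1.92% to 33.5 ± 5.46%, a difference of 28.8 points (two-sided exact permutation test, p = 0.007937, the smallest that 5 against 5 libraries allow). Muc5b remained the more abundant of the pair in every library. The other gel-forming mucins of the cluster on chromosome 7 stayed near the counting floor: Muc2, the intestinal mucin, at 0.508 to 0.962 CPM in controls and 0.223 to 0.577 CPM after IL-33, and Muc6, a gastric mucin, at 0 to 0.436 and 0.228 to 0.556 CPM. Neither passed the low-count filter.

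**Figure D2:**
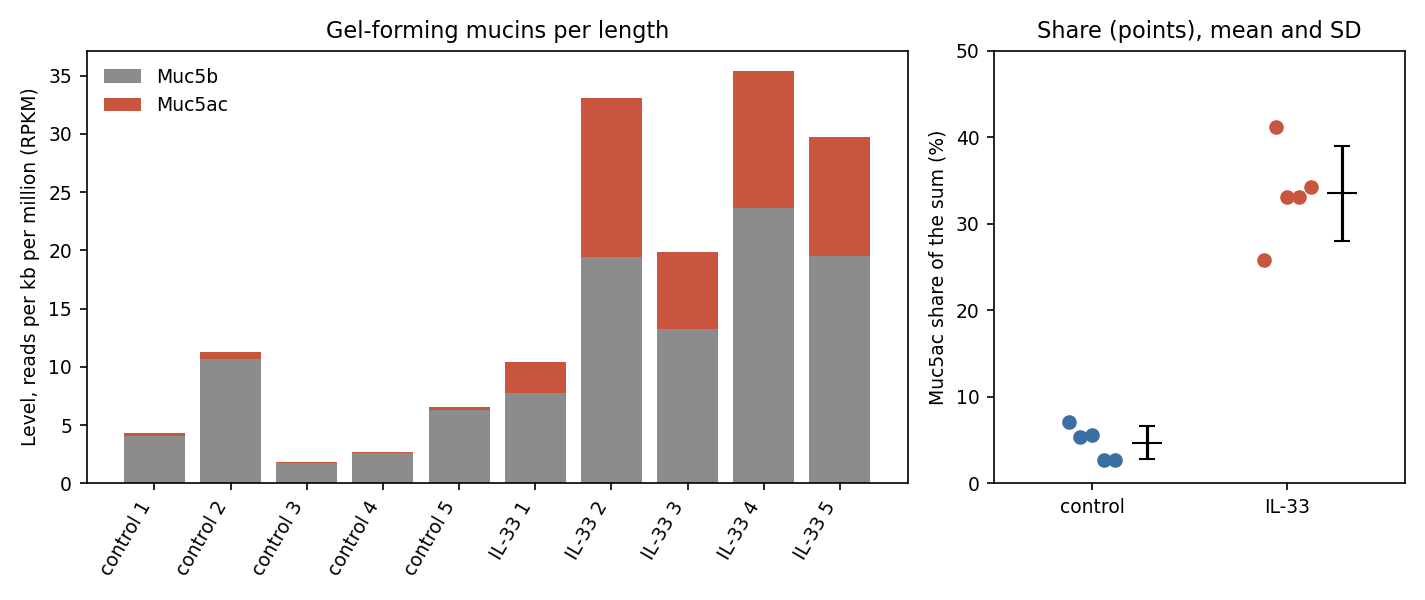
Left, RPKM of Muc5b (grey) and Muc5ac (red) stacked in each of the 10 libraries; right, the percent of that sum made up by Muc5ac in each library, with mean and SD of 5 libraries per group. The share lies between 2.73% and 7.11% in controls and between 25.9% and 41.2% after IL-33.

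Spdef, the ETS factor that drives goblet cell differentiation (ENSMUSG00000024215, chromosome 17, 27714352 to 27728955), was at 1.31, 3.41, 1.23, 0.962 and 1.25 CPM in controls. In the IL-33 lungs it was at 5.39, 12.1, 9.22, 10.3 and 8.35 CPM. Control 2 stood alone among the controls, and the groups did not overlap. Spdef rose by 2.52 ± 0.31 on the log2 scale (edgeR adjusted p = 1.102e-05).

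Foxa3, a forkhead factor of goblet cells (ENSMUSG00000040891, chromosome 7, 19013284 to 19023538), was close to the floor in controls, at 0.218, 0.440, 0.112, 0.350 and 0.287 CPM. It was at 2.02, 3.56, 2.82, 4.26 and 1.75 CPM after IL-33. These controls rest on 1 to 4 reads per library, and no challenged lung fell within their range. The log2 fold change was 3.33 ± 0.37 (edgeR adjusted p = 4.031e-06). Both factors were among the lowest of the 10 genes in IL-33 lungs per length, at 3.93 ± 1.08 RPKM for Spdef and 1.41 ± 0.514 RPKM for Foxa3.

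Agr2, an endoplasmic reticulum disulfide isomerase needed to fold mucins (ENSMUSG00000020581, chromosome 12, 35992907 to 36004087), was at 2.40, 4.95, 1.34, 0.262 and 3.16 CPM in controls. After IL-33 it was at 32.5, 79.2, 64.7, 74.5 and 49.7 CPM, every library above every control. Agr2 rose by 4.68 ± 0.39 on the log2 scale (edgeR adjusted p = 3.665e-07). Its paralog Agr3, known from ciliated cells, was at 4.20 ± 1.48 CPM in controls and 4.50 ± 0.759 CPM after IL-33 and was not called (log2 fold change 0.12 ± 0.22, edgeR adjusted p = 0.6445).

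Clca1, a secreted metalloprotease of goblet cells that acts on mucus structure (ENSMUSG00000028255, chromosome 3, 145003817 to 145032776), was at 14.4, 83.1, 2.57, 0.962 and 2.11 CPM in controls 1 to 5. In IL-33 libraries it was at 587, 2436, 1419, 2618 and 1738 CPM. Controls spread over 86.4-fold from lowest to highest, the widest control range of the 9 genes with reads in every control, yet the lowest challenged lung lay above control 2. The log2 fold change was 6.46 ± 1.01 (edgeR adjusted p = 8.162e-05). Without control 2 it was 8.38, and limma-voom gave 8.10, both of them called.

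Of all reads on the 10 genes, Clca1 took 15.4%, 29.1%, 6.46%, 1.93% and 1.80% in controls 1 to 5. In IL-33 libraries 1 to 5 it took 66.1%, 70.7%, 70.0%, 71.1% and 69.2%. The challenged lungs were thus close to each other in this share although their summed level of the 10 genes ran from 888 to 3680.1 CPM. In controls the sum ran from 39.8 to 286 CPM, where Muc5b held most of the reads.

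Tff1, a trefoil peptide that gastric pit and goblet cells secrete with mucin (ENSMUSG00000024032, chromosome 17, 31161395 to 31165277), had 1 read in all controls together, in control 2. IL-33 libraries held 133, 209, 142, 194 and 126 reads, or 12.8, 23.3, 18.2, 15.3 and 9.56 CPM. The ratio of summed reads, scaled to the totals, was 813 (exact 95% binomial interval 146 to 32170, counting error only), and with control 2 left out Tff1 was at least 225-fold higher, taking 3 reads over the 4 remaining controls as the floor. The edgeR test gave an adjusted p of 1.647e-08. On 221 exonic bases Tff1 overlaps Gm15318 on the other strand, which had 0 reads in controls and at most 0.394 CPM after IL-33.

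Tff2, the trefoil peptide encoded 17112 bases away (ENSMUSG00000024028, chromosome 17, 31141049 to 31144282), was present in all controls, at 3.70, 9.34, 0.783, 1.57 and 4.22 CPM. After IL-33 it was at 8.18, 33.2, 22.8, 33.7 and 21.6 CPM. As for Muc5b, IL-33 library 1 lay below control 2. The log2 fold change was 2.64 ± 0.48 (edgeR adjusted p = 0.000282). The third gene of the cluster, Tff3, the trefoil peptide of intestinal goblet cells, had 1 read in the controls and 21 in the IL-33 libraries (ratio 21.2, exact 95% interval 3.42 to 879). Without control 1, which held that read, it was at least 5.27-fold higher.

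Itln1, intelectin 1, a lectin that binds microbial sugars in mucus (ENSMUSG00000038209, chromosome 1, 171518122 to 171535294), was at 1.45, 1.76, 1.90, 1.57 and 2.01 CPM in controls. In IL-33 lungs it was at 66.4, 301, 149, 310.0 and 186 CPM. Its controls differed by at most 1.39-fold, the narrowest range of the 9 genes with reads in every control, while the challenged lungs spread widely around a low IL-33 library 1. Itln1 rose by 6.89 ± 0.45 on the log2 scale (edgeR adjusted p = 4.627e-08). Mouse strains differ in how many intelectin genes they carry, so reads of a BALB/c copy that the reference genome lacks could be counted here; this was not tested.

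Fcgbp, a large mucus protein that binds the Fc part of IgG and links to mucins (ENSMUSG00000047730, chromosome 7, 28071236 to 28120862), was at 6.10, 15.9, 4.25, 4.37 and 6.90 CPM in controls. IL-33 libraries were at 29.1, 118, 72.4, 134 and 94.9 CPM. Control 2 stood above the other controls, and the groups did not overlap. On the log2 scale Fcgbp rose by 3.62 ± 0.42 (edgeR adjusted p = 6.177e-06). Of its 75-base windows 2.99% also occur in the neighbouring paralog 9530053A07Rik, which stayed at 1.79 to 2.97 CPM in controls and 1.44 to 3.20 CPM after IL-33 (log2 fold change 0.19, not called, edgeR adjusted p = 0.4926).

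**Figure D3:**
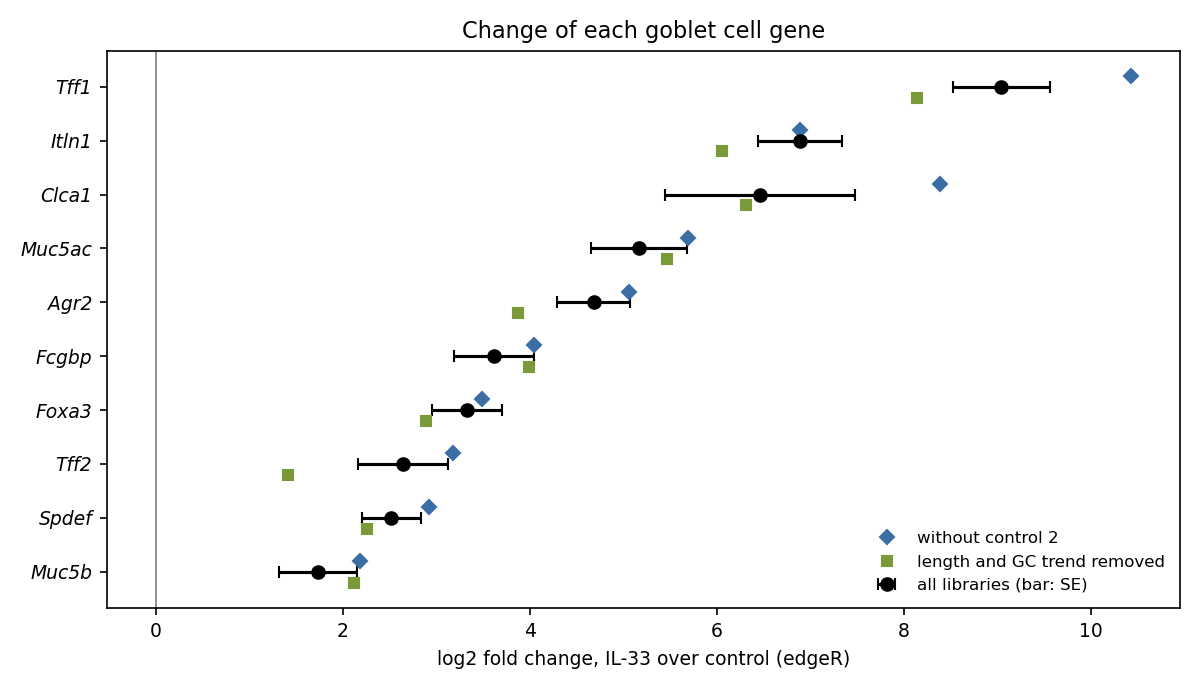
log2 fold change of each goblet cell gene, IL-33 over control, from edgeR (black, bar SE, all 10 libraries), without control 2 (blue) and with the trend on exonic length and GC content removed per library (green). All values lie above 0; leaving out control 2 raised Clca1 from 6.46 to 8.38 and Tff1 from 9.04 to 10.43, and removing the trend lowered Tff2 from 2.64 to 1.42.

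With the trend on exonic length and GC content removed within each library, 4 short genes moved by more than 1.5 times in fold. Tff2 went to a log2 fold change of 1.42 (edgeR adjusted p = 0.0139), Agr2 to 3.88, Tff1 to 8.14 and Itln1 to 6.05. All 10 genes stayed called and higher.

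Ordered by RPKM in controls, the genes ran from Tff2 (6.72 ± 5.74), Clca1 (5.46 ± 9.36) and Muc5b (5.09 ± 3.58) through Agr2 (1.88 ± 1.38), Itln1 (1.53 ± 0.201), Fcgbp (0.716 ± 0.461), Spdef (0.708 ± 0.435) and Muc5ac (0.256 ± 0.220) to Foxa3 (0.138 ± 0.0614) and Tff1. Neighbours in this order overlapped within 1 SD except Itln1 and Fcgbp. The place of Clca1 rests on control 2: without it, Clca1 was at 1.33 ± 1.66 RPKM (n = 4), below the means of Tff2, Muc5b, Itln1 (1.52 ± 0.232) and Agr2 (1.39 ± 0.978), which overlap it. After IL-33 the order was Clca1 (466 ± 217), Itln1 (177 ± 90.7), Agr2 (46.6 ± 14.8), Tff2 (40.9 ± 17.9), Tff1 (22.5 ± 7.44), Muc5b (16.7 ± 6.25), Muc5ac (8.97 ± 4.35), Fcgbp (8.54 ± 3.92), Spdef and Foxa3. Here the neighbours that did not overlap within 1 SD were Itln1 with Agr2 and Spdef with Foxa3. The secreted proteins Clca1 and Itln1 thus stood above both mucins in challenged lungs, and Tff1 went from last place to the fifth.

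Within each group the 10 genes tended to rank the libraries alike. Control 2 was the highest control for 9 of the 10, the exception being Itln1, whose highest control was control 5. Relative to the median of the other controls, control 2 was 35.5 times as high for Clca1, 4.35 for Muc5ac, 3.54 for Tff2, 3.21 for Muc5b, 3.04 for Fcgbp, 2.75 for Spdef, 2.65 for Agr2 and 1.74 for Foxa3, and 1.01 for Itln1. Among challenged lungs, IL-33 library 1 was the lowest for 8 of the 10 and library 5 for Foxa3 and Tff1. Against the median of the other 4, IL-33 library 1 held 0.247 of the Muc5ac level, 0.273 of Itln1 and of Fcgbp, 0.281 of Clca1, 0.292 of Tff2, 0.398 of Muc5b, 0.467 of Agr2, 0.553 of Spdef, 0.633 of Foxa3 and 0.764 of Tff1. Library 4 was the highest for 6 genes and library 2 for 4. In the same libraries, the summed level of 11 ciliated cell markers was highest in control 2 among controls (1952 CPM; controls 1604 to 1952) and lowest in IL-33 library 1 among challenged lungs (641 CPM; 641 to 963). Of that sum, Sec14l3 alone held 1233 CPM in control 2. Sec14l3 itself was highest in control 5 among controls (1325 CPM) and lowest in IL-33 library 2 among challenged lungs (320 CPM). Every other ciliated marker was highest in control 2 among controls, such as Foxj1 at 113 CPM against at most 80.5 CPM elsewhere. All but Sec14l3, Tppp3 and Rsph1 were lowest in IL-33 library 1 among challenged lungs, Foxj1 at 44.9 CPM. The part of the ciliated cells or of these libraries in the results was not tested. The 10 club cell markers summed to 22986 to 25436 CPM in controls and 13813 to 15592 CPM after IL-33, with 9 of the 10 lower, opposite in direction to the goblet cell genes. Their sum was highest in control 1 among controls and lowest in IL-33 library 5 among challenged lungs. Scgb1a1 held most of it, 18927 CPM in control 1 and 10899 CPM in IL-33 library 5. Of the other club cell markers, Scgb3a2 and Gabrp were highest in control 2 and the rest in other controls. Scgb3a2, Cyp2f2, Aldh1a1, Cbr2 and Gabrp were lowest in IL-33 library 1, and Cldn10, Upk1a, Hp and Cckar in other challenged lungs. The sum of 9 pan-epithelial markers was highest in control 2 (1322 CPM) and lowest in IL-33 library 3 (933 CPM). With control 2 and IL-33 library 1 both left out, a choice made after seeing the data, all 10 genes were called, with log2 fold changes of 5.92 for Muc5ac, 2.37 for Muc5b, 8.61 for Clca1, 3.41 for Tff2 and 4.28 for Fcgbp.

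**Figure D4:**
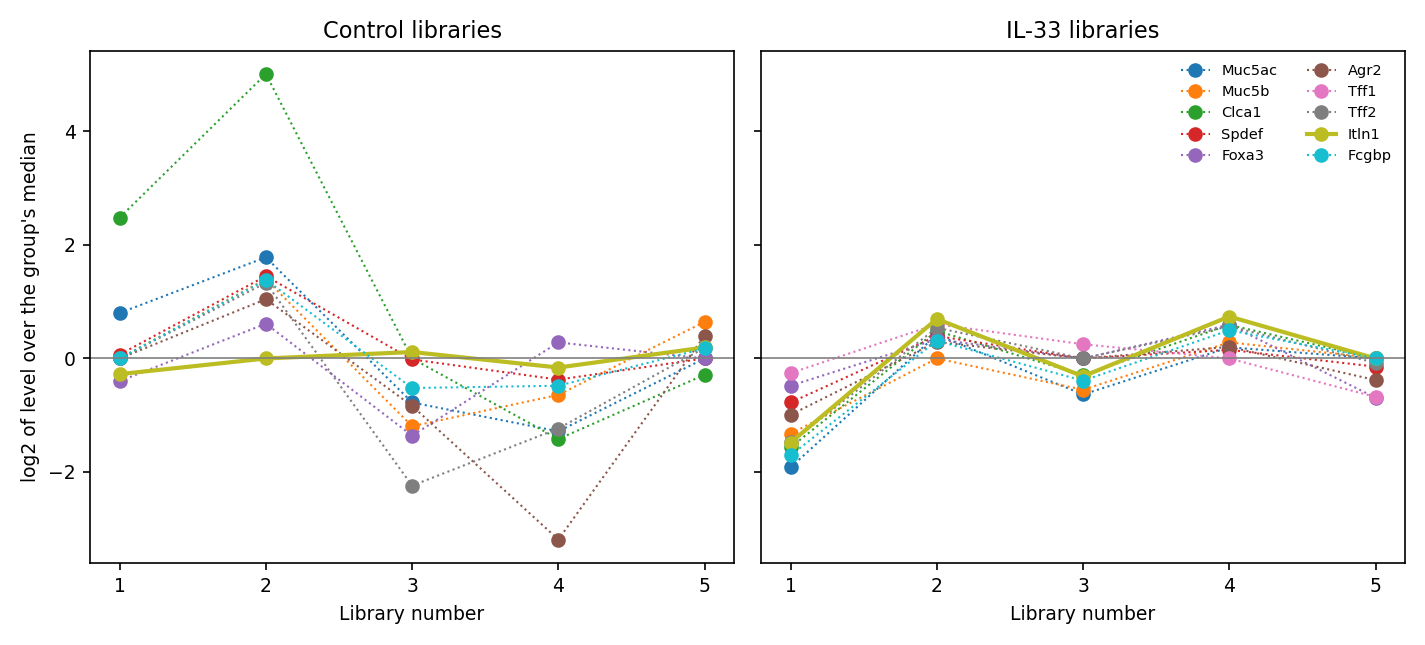
Level of each goblet cell gene in each library as the log2 difference from its own group's median, controls on the left and IL-33 on the right; dotted lines only join the points of 1 gene, Itln1 is drawn as a solid line, and Tff1 is left out of the controls, where 4 of 5 libraries have 0 reads. Control 2 lies highest for all genes shown but Itln1, and IL-33 library 1 lies lowest for 8 of the 10.

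Not every induced secretory gene followed this pattern. Among genes chosen after their values were seen, Bpifb1, an airway secretory protein, ranked the libraries much as the mucins did, at 29.4, 151, 22.3, 9.53 and 77.8 CPM in controls and 76.7, 421, 188, 378 and 231 CPM after IL-33. Reg3g, an antimicrobial lectin, went from 17.4, 66.4, 10.3, 1.49 and 53.6 CPM to 13.3, 440, 181, 423 and 235 CPM, with IL-33 library 1 inside the control range. In contrast, Slc26a4, the anion exchanger pendrin, was highest in IL-33 library 1, at 379 CPM against 223, 272, 255 and 289 CPM in libraries 2 to 5. Chia1, the acidic chitinase, was at 2007, 1375, 1944, 2037 and 2073 CPM in IL-33 libraries 1 to 5, and Retnlb, a goblet cell resistin-like protein, at 34.3, 37.6, 33.3, 39.0 and 26.6 CPM. Neither was lowest in IL-33 library 1.

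Likeness of profile was measured as the root-mean-square difference of log2(CPM + 0.1) after centring each gene on its mean over the 10 libraries, among 13942 genes. Muc5ac was closest to Scin, an actin-severing protein (0.340), the immunoglobulin segment Igkv14-126 (0.550) and Fer1l6, a ferlin (0.71). Spdef was closest to Prr11 (0.288), Gpr55 (0.299) and Irf4, a lymphocyte transcription factor (0.317). Clca1 had no close match: its nearest genes were Fxyd4 (1.28), Retnla (1.30) and Rnase2a (1.47). Scin rose from 0.768 ± 0.717 to 21.8 ± 8.24 CPM, by 4.86 ± 0.43 on the log2 scale (edgeR adjusted p = 5.553e-07), or 5.45 without control 2. Between the goblet cell genes, Spdef and Foxa3 were nearest to each other (0.507), and Muc5b and Clca1 farthest apart (3.31). All these profiles come from the same 10 libraries.

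Of 6 other mucins tested, 3 rose and 1 fell, against 35.1% and 34.8% of all tested genes, with a median log2 fold change of 0.39. Mucl1, a small mucin-like secreted protein, went from 0.310 ± 0.213 to 33.3 ± 7.09 CPM (log2 fold change 6.77 ± 0.26, edgeR adjusted p = 8.777e-10; 5.69 with the length and GC trend removed). Muc3a, a transmembrane mucin of low level, went from 0.404 ± 0.330 to 3.39 ± 0.747 CPM (2.94 ± 0.37; 3.56 without control 1), and Muc20, another transmembrane mucin, fell from 12.4 ± 2.13 to 5.52 ± 0.820 CPM. Muc1, the most abundant of them, was at 274 ± 22.6 and 288 ± 25.1 CPM and was not called (0.09 ± 0.08, edgeR adjusted p = 0.3221); with the length and GC trend removed it was called lower, at -0.27 (edgeR adjusted p = 0.00602).

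Enzymes that attach and extend the O-linked sugars of mucins were called in shares near those of all tested genes. Of 24 tested, 9 rose and 8 fell (37.5% and 33.3%, against 35.1% and 34.8% of all tested genes), with a median log2 fold change of 0.02. Galnt12 and Galnt6, which start O-glycans, rose from 4.47 ± 1.01 to 24.8 ± 1.97 CPM (log2 fold change 2.47 ± 0.14) and from 6.85 ± 1.23 to 23.3 ± 1.38 CPM (1.78 ± 0.12), while Galnt15 fell from 50.2 ± 17.9 to 12.7 ± 5.46 CPM (-1.94 ± 0.28). St3gal1, a sialyltransferase and the most abundant of the list, fell from 177 ± 7.78 to 120.4 ± 10.2 CPM. Gcnt3, which makes branched mucin O-glycans, was not in the test: it had 3 reads in controls and 61 after IL-33 (ratio 20.6, exact 95% interval 6.72 to 102.5). Fut1, a fucosyltransferase, had 0 and 31 reads, at least 10.5-fold higher, taking 3 reads over the group as the floor.

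Among 22 genes of protein folding and stress sensing in the endoplasmic reticulum, 10 rose and 3 fell, with a median of 0.35. These are 45.5% and 13.6%, against 35.1% and 34.8% of all tested genes. Ern2, the stress sensor IRE1β of mucous epithelia, rose from 0.552 ± 0.542 to 3.37 ± 1.27 CPM (2.71 ± 0.54, edgeR adjusted p = 0.0005464; 3.40 with control 2 and IL-33 library 1 left out). The chaperone cofactor Sdf2l1 rose by 1.95 ± 0.15 and the retrieval receptor Kdelr3 by 1.05 ± 0.13, or by 1.16 and 0.35 with the length and GC trend removed. Hspa5, the abundant chaperone BiP, rose from 709.8 ± 141 to 1025 ± 256 CPM (0.55 ± 0.18). That call held in 21 of 23 alternatives, with 0.41 to 0.64 when 1 library was left out. Plasma cells use the same machinery: Jchain, the joining chain of secreted antibodies, was at 6.38 to 22.0 CPM in controls and 89.9 to 485 CPM after IL-33, again lowest in library 1, and its cells' part in this list and in the Igkv14-126 profile was not tested.

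Secreted companions of goblet cells had the most one-sided count, with 10 of 13 tested genes higher and none lower (76.9%, against 35.1% of all tested genes) and a median of 2.19; 3 more were not called. Without IL-33 library 4, Tmprss2, an epithelial serine protease, was called lower at -0.21 (edgeR adjusted p = 0.0344, against -0.14 and 0.1476 with all libraries). Retnlb rested on 5 control reads and rose by 8.37 ± 0.24 (edgeR adjusted p = 1.04e-10; 7.25 with the length and GC trend removed). Chia1 rose from 88.3 ± 8.74 to 1887 ± 290.3 CPM (4.44 ± 0.13). Gp2, a receptor of mucosal epithelia that binds bacterial pili, rose from 0.606 ± 0.736 to 5.83 ± 4.41 CPM (3.36 ± 0.76, edgeR adjusted p = 0.001495), or by 4.29 without control 2. Ltf, among the 10 higher genes of this list, also served as a submucosal gland marker, and 8 of 9 leukocyte markers rose. The part of gland cells, leukocytes and other cells in the count of secreted companions was not tested. Of the CLCA family, only 2 genes besides Clca1 passed the filter: Clca3a1 rose by 0.84 ± 0.24, and Clca3b, at 0.863 ± 0.827 and 1.13 ± 0.974 CPM, was not called. Clca3a1 shares 13.2% of its 75-base windows with other genes, so its count is uncertain.

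Of 18 tested genes that dock, prime and fuse mucin granules 4 rose and 7 fell (22.2% and 38.9%, the latter near the 34.8% of all tested genes called lower), with a median of -0.08 and none at least 4-fold higher. Marcks, a protein kinase C substrate that links mucin granules to the cytoskeleton, was at 333 ± 27.1 and 389 ± 28.7 CPM. It rose by 0.25 ± 0.08 (edgeR adjusted p = 0.01158), a call that held in only 17 of 23 alternatives. Among others it was lost with the length and GC trend removed (0.12, edgeR adjusted p = 0.173) and without the low-count filter (0.21, edgeR adjusted p = 0.0565). It was also lost at a threshold of 0.01 and in the test against a 1.5-fold change. The priming proteins Cadps2 and Unc13b fell by 0.91 ± 0.12 and 0.77 ± 0.13 on the log2 scale. These genes are also expressed by other lung cells, and the goblet cells' part in them was not tested.

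**Figure D5:**
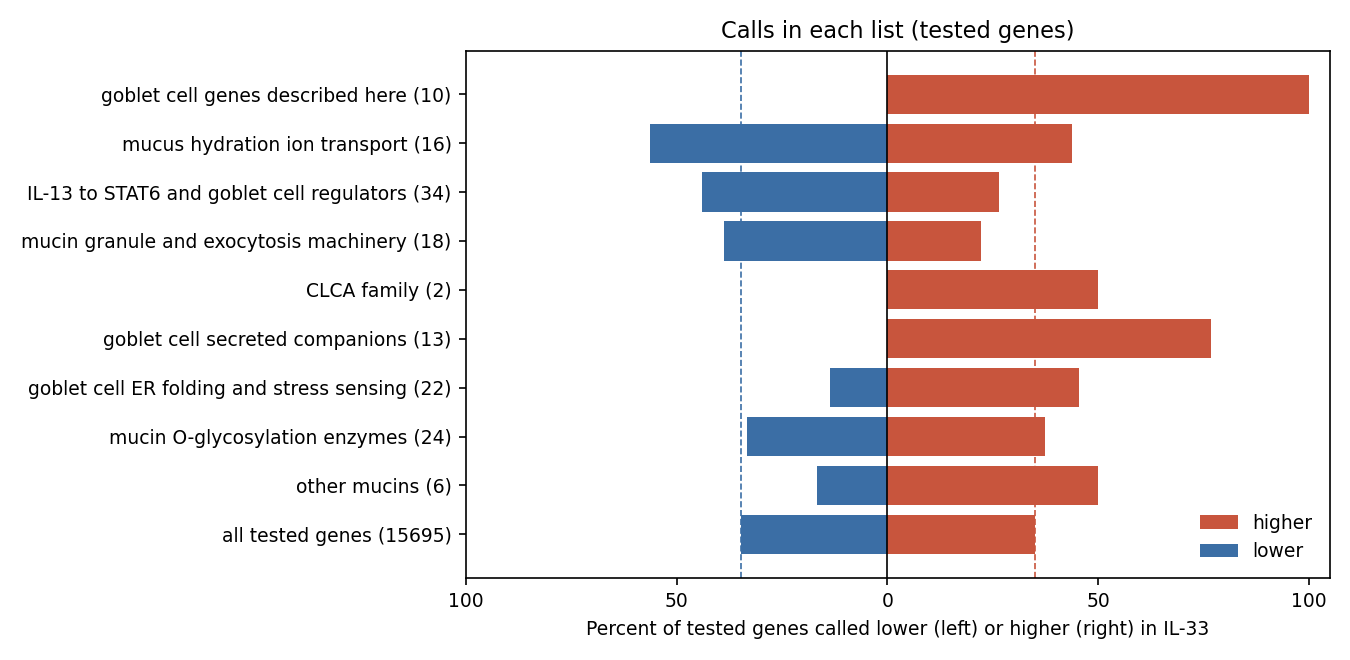
Percent of tested genes in each list that edgeR called higher (red, to the right) or lower (blue, to the left) after IL-33, with the number tested in brackets; dashed lines mark all tested genes, 35.1% higher and 34.8% lower. The goblet cell genes described here are all called higher, the secreted companions reach 76.9%, and ion transport genes are called in both directions, 43.8% higher and 56.3% lower.

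Upstream of these genes, the cytokines Il13 and Il4 and the receptor Il13ra2 rose, and the receptor chains Il13ra1 and Il4ra and Stat6 fell. Of 34 tested genes of the IL-13 to STAT6 route and other goblet cell regulators 9 rose and 15 fell, with a median of -0.26. These are 26.5% and 44.1%, against 35.1% and 34.8% of all tested genes. Il13, the cytokine that induces mucous metaplasia, had 3 reads in all controls and 1659 after IL-33 (ratio 559.5, exact 95% interval 191 to 2716; 1248 without control 1, which held 2 of the 3). Its IL-33 libraries were at 17.9, 60.7, 41.0, 41.4 and 6.30 CPM, lowest in library 5 and not in library 1. Il13ra2, the decoy receptor of IL-13, had 2 and 341 reads (ratio 173, 47.4 to 1430.2; 288 without control 3 and 278 without control 5), and Il4 rose by 4.07 ± 0.38, or by 3.24 with the length and GC trend removed. The receptor chains Il13ra1 and Il4ra and the factor Stat6 fell by 0.37 ± 0.10, 0.47 ± 0.09 and 0.33 ± 0.07 on the log2 scale (edgeR adjusted p = 0.00415, 0.000475 and 0.0006459).

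Of the regulators of airway cell fate, Foxa1 fell by 0.95 ± 0.17, and Foxa2, which restrains goblet cell differentiation, was at 44.2 ± 6.97 and 36.5 ± 9.28 CPM and was not called (edgeR adjusted p = 0.1719). Notch1 and Notch3 fell by 1.02 ± 0.11 and 1.24 ± 0.09, receptors that vessels and immune cells also express. Among those that rose were Foxm1 (1.95 ± 0.11), the proliferation factor, Bhlha15 (2.10 ± 0.33), a factor of secretory cells and plasma cells, and Mapk13 (1.47 ± 0.10), a kinase of the IL-13 mucin response. Ets1, the most abundant of the list, fell from 441.5 ± 55.7 to 352 ± 54.1 CPM (-0.31 ± 0.11, edgeR adjusted p = 0.02787), a call lost without control 1, IL-33 library 2 or IL-33 library 4 (adjusted p = 0.0587, 0.0572 and 0.058), at a threshold of 0.01, in the test against a 1.5-fold change, and with the length and GC trend removed (-0.13, adjusted p = 0.304; with the replicate block as well, 0.0963).

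All 16 tested genes of ion transport, which sets the hydration of mucus, were called, against 69.9% of all tested genes, with 7 higher and 9 lower (43.8% and 56.3%). Slc26a4 rose from 4.52 ± 2.76 to 284 ± 58.5 CPM (6.01 ± 0.30, edgeR adjusted p = 5.796e-09), and Fxyd4, a small regulator of the sodium pump, from 0.200 ± 0.324 to 33.7 ± 7.39 CPM (7.43 ± 0.39; 8.75 without control 2). All 3 subunits of the epithelial sodium channel fell: Scnn1a, the most abundant of the list, from 501 ± 67.7 to 210.5 ± 28.7 CPM (-1.23 ± 0.11), Scnn1b by 1.40 ± 0.08 and Scnn1g by 1.65 ± 0.13. The chloride transporters Slc26a9, Cftr and Ano1 fell by 1.69 ± 0.10, 0.93 ± 0.17 and 0.79 ± 0.08. Alveolar epithelium also expresses the sodium channel, and its part here was not tested.

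Cell type markers were measured beside these lists; of all tested genes, 35.1% were called higher and 34.8% lower, and shares of small lists near these are no result about the list. Of 10 club cell markers 9 fell and 1 rose, and Scgb3a2 went from 421 to 50.8 CPM and Cyp2f2 from 2058 to 508 CPM. Of 11 ciliated markers 7 fell and 1 rose, while Foxj1, the ciliated cell regulator, was at 75.2 and 71.8 CPM and was not called (edgeR adjusted p = 0.8668). Of 9 pan-epithelial markers 5 fell and 2 rose, among them Epcam, from 62.9 to 77.7 CPM. Of 9 leukocyte markers 8 rose and 1 fell, and their sum went from 220.0 to 403 CPM in controls to 543 to 627 CPM after IL-33. Of 12 submucosal gland markers 4 were tested: Ltf rose from 81.1 to 315 CPM (log2 fold change 1.99, 2.73 with limma-voom and 2.58 with the replicate block) and Acta2, also a smooth muscle gene, from 280.5 to 446 CPM, Mfge8 fell from 266 to 218 CPM, and Dmbt1 was not called. Their sum was 519 to 747 CPM in controls and 903 to 1088 CPM after IL-33, and Prol1, Bpifb9a, Bpifb9b, Dcpp1, Dcpp2 and Dcpp3 had 0 reads in all libraries. The part of gland cells in the results was not tested. Of 11 stomach and gut markers, which share trefoil peptides with goblet cells, Gkn1, Gkn2, Atp4b and Cdx2 had 0 reads in all libraries, and the sum was 2.27 to 3.41 CPM in controls and 4.01 to 5.68 CPM after IL-33. Only Gkn3 of these markers was tested, and it rose from 1.63 to 3.36 CPM (log2 fold change 1.05, edgeR adjusted p = 0.0008476).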

How the data were processed

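Per the labels, lung tissue was stored in RNALater, RNA was extracted with the RNeasy Plus Mini kit, and libraries were made after polyA enrichment with a stranded KAPA kit. The submitters' processing notes name FastQC 0.11.6, MultiQC 1.6, STAR 2.5.4b, HTSeq 0.9.1 and GRCm38. The annotation release and the strand setting of counting are not stated there. The authors deposited 1 table of raw read counts by gene for each library, without normalization. Rows naming no gene stayed out of library sizes: of all records, 10.4% to 13.7% lay in no gene, 0.862% to 0.945% were ambiguous and 15.0% to 22.8% aligned to several places.

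Gene symbols, lengths and positions came from GENCODE M21 on GRCm38 (53360 of 53465 identifiers matched). CPM scale reads to all reads counted in genes, and RPKM divide CPM by union exonic length. All 10 libraries entered 1 edgeR 4.0.16 fit under R 4.3.3, whose single term was the group, with TMM factors of 0.969 to 1.03, filterByExpr, and the quasi-likelihood test Benjamini-Hochberg adjusted over 15695 genes and a threshold of 0.05. The SE of a log2 fold change is its size over the square root of the F statistic. The fit was checked on simulated counts. The Muc5ac share was compared by a two-sided exact permutation test over all splits of 5 against 5 libraries. With 1 to 3 control reads, ratios of summed reads have exact 95% binomial intervals. Intervals and floors (3 reads) cover counting error only.

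The genes and lists were chosen with earlier results of these data known. All 10 goblet cell genes were named. Of each list the most abundant gene and up to 3 called genes with the largest change and a mean of at least 1 CPM were named, and for Muc5ac, Clca1 and Spdef the 3 genes of most alike profile; 1 gene so chosen is not reported here. Other genes named were chosen after their values were seen. Alternatives were other size factors, other filters, DESeq2 1.42.0, limma-voom (limma 3.58.1), the replicate number as a block, offsets that remove the trend on exonic length and GC content within a library, TMM factors without the 50 most abundant genes, testing for more than a 1.5-fold change, a threshold of 0.01 and each library left out in turn. Muc12, Muc17, Muc21 and Itlnb of the lists and Dnai1 of the markers matched no identifier and were not analysed here.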

Additional observations from a re-analysis of the deposited data

Results flagged for a closer look

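Of the 22 sets of 5 values examined (the 10 genes and the Muc5ac share in each group), 4 had 1 library far from the other 4 by Dixon's criterion. Chance alone meets it in about 1 of 20 sets of normally distributed values, a rate not checked for CPM. All 4 were in the control group and concerned control 2. Clca1 was at 83.1 CPM there and at 0.962 to 14.4 CPM in the other controls. Spdef was at 3.41 CPM against 0.962 to 1.31 CPM. Fcgbp was at 15.9 CPM against 4.25 to 6.90 CPM. Tff1 was at 0.11 CPM, which is a single read, against 0 in the other controls. Any single read beside controls at 0 meets the criterion, so this flag says nothing more. The values share 1 library and are not independent of each other. Control 2 also had the highest summed ciliated marker level of the controls, at 1952 CPM, and the part of this in the 4 values was not tested. The summed club cell markers were highest in control 1, at 25436 CPM, of which Scgb1a1 held 18927 CPM. Among these markers Scgb3a2 and Gabrp were highest in control 2.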

How the results depend on the processing

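All 10 goblet cell genes were called higher under each of the 23 alternatives, 230 of 230 results in all, and the difference in Muc5ac share was 26.9 to 30.7 points with 1 library left out and 23.2 points on reads not divided by length. Of 644 results for 28 named list genes, 624 kept their direction and their side of the threshold. Testing against a 1.5-fold change asks for larger changes and left 4741 genes called, 2813 higher and 1928 lower. In that test the O-glycosylation enzymes had 3 lower calls, the folding genes 6 higher and 0 lower, the CLCA family 0 higher, the granule genes 0 higher and 2 lower, and the IL-13 route 6 lower. Other mucins had 2 lower calls without the low-count filter, with DESeq2 and with length and GC offsets. The CLCA family had 3 higher calls without the filter and 2 with DESeq2. Granule genes had 2 higher calls with the offsets and at an adjusted p of 0.01. Secreted companions had 0 to 1 lower calls over the libraries left out in turn, the 1 (Tmprss2) arising without IL-33 library 4. Muc1 reversed to -0.27 with length and GC offsets. The causes were not tested. Leaving out 1 library gave 10516 to 11089 genes called.

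Whether the replicate number pairs the libraries was not settled. Deviations of same-numbered libraries correlated at 0.23, 0.21, 0.06, -0.07 and 0.15. The mean correlations with other numbers were -0.08, -0.04, -0.02, 0.01 and -0.02, lower for every number but 4. Of the controls only number 1 matched its own number best. With the replicate number as a block, 11122 genes and all 10 goblet cell genes were called, with Clca1 at 7.39. With the block and length and GC offsets together, Muc1 was at -0.27, other mucins had 2 lower calls and granule genes 2 higher calls.

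Depth limits Tff1, Tff3 and Foxa3 in controls, where 0 to 4 reads per library were counted.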

Other observations

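Other rare airway cell types had markers that moved apart from each other. Dclk1, a kinase used to mark tuft cells, rose from 10.4 ± 1.89 to 50.5 ± 4.92 CPM (log2 fold change 2.31 ± 0.12, edgeR adjusted p = 8.012e-09), and Ltc4s, the leukotriene C4 synthase, from 4.96 ± 0.506 to 12.5 ± 2.83 CPM (1.35 ± 0.16; 0.62 with length and GC offsets). The tuft cell regulator Pou2f3 was at 0.245 ± 0.0537 and 0.227 ± 0.0863 CPM, the channel Trpm5 at 0.723 ± 0.378 and 0.209 ± 0.0744 CPM, and Il25, Gnat3 and Chat stayed under 1 CPM in all libraries. Calca, the neuropeptide gene of neuroendocrine cells, rose from 2.11 ± 0.438 to 14.3 ± 5.24 CPM (2.75 ± 0.28, edgeR adjusted p = 1.615e-06; 2.13 with the offsets). Of the other neuroendocrine markers, Syp was at 8.12 ± 0.604 and 9.42 ± 1.07 CPM and was not called (edgeR adjusted p = 0.08339). Of 6 tested basal markers 2 rose, 1 fell and 3 (Krt15, Ngfr and Dapl1) were not called. Trp63, the basal cell regulator, rose from 1.13 ± 0.556 to 4.81 ± 0.735 CPM (2.13 ± 0.26, edgeR adjusted p = 7.942e-06), and the adhesion molecule Icam1, which many cells express, fell by 0.56 ± 0.08. Icam1 held most of the basal sum, which was 444 to 485 CPM in controls and 282 to 366 CPM after IL-33. Krt5 rose by 1.67 ± 0.69 (edgeR adjusted p = 0.04575), a call lost with DESeq2 (adjusted p = 0.14), with the length and GC trend removed (0.104), and without control 1, 3 or 4 or IL-33 library 2, 3, 4 or 5, and at 2.38 without control 5. Of 6 mesothelial markers 3 fell, 2 rose and 1 was not called: Msln, Upk3b and Gpm6a fell by 0.96 ± 0.20, 1.29 ± 0.20 and 1.32 ± 0.14 on the log2 scale, Wt1 and Upk1b rose by 0.89 ± 0.18 and 0.54 ± 0.16 (the Upk1b call was lost with the length and GC trend removed, at 0.05, adjusted p = 0.806), and Lrrn4 was at 16.3 ± 3.19 and 16.1 ± 7.44 CPM.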
